A study of Mus musculus with 12 samples.

Results

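The cortical layer neuron markers were 9 genes, chosen by symbol: Cux2, Rasgrf2 and Lamp5 for the upper layers, Rspo1 for layer 4, and Etv1, Fezf2, Bcl11b, Tbr1 and Foxp2 for the deep layers. All 9 were found among the 23183 genes listed in each library. Libraries came from the cortex or the hippocampus of male C57BL/6 mice, which had been bought at 7 weeks of age and acclimatized for 1 week before a single 10 Gy dose of X-rays to the whole brain (IR) or sham irradiation (Con). Tissue was taken 3 months later, and each of the 4 groups (cortex Con, cortex IR, hippocampus Con, hippocampus IR) held 3 libraries, 12 in all. No allele or transgene is named for any group. The questions were how the markers differed between the tissues at baseline, and whether upper and deep layer markers differed between IR and Con.

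The neocortex is built of stacked layers of projection neurons that are born in order, deep layers first. Neurons of the upper layers mostly connect cortical areas with each other, layer 4 receives input from the thalamus, and layers 5 and 6 send axons out of the cortex to the brainstem, spinal cord and thalamus. Transcription factors that set and keep these identities, such as Cux2, Fezf2, Bcl11b and Tbr1, are widely used as layer markers. Most of them are also made elsewhere in the brain: Bcl11b, for example, is a known marker of pyramidal and granule neurons of the hippocampus and of striatal projection neurons. In bulk tissue, fewer cells of a type cannot be told apart from less RNA per cell.

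On GRCm38 with GENCODE M21, each of the 9 genes was protein coding and shared no exonic base with another annotated gene. Their spans ran from 6.10 kb for Fezf2 (chr14:12342094-12348189, minus strand) to 541 kb for Foxp2 (chr6:14901349-15441977, plus strand). RefSeq start site windows on GRCm38.p6 were matched for 8 of the 9 members, with none for Foxp2. Printed here are the 250 bases before the start for a member with a large regional difference (Rspo1), for one with a smaller difference (Rasgrf2) and for the one with none detected (Etv1), each free of annotated exons. CG dinucleotides are in capitals, and every sequence is written 5′ to 3′ on the strand of its gene.
Rspo1: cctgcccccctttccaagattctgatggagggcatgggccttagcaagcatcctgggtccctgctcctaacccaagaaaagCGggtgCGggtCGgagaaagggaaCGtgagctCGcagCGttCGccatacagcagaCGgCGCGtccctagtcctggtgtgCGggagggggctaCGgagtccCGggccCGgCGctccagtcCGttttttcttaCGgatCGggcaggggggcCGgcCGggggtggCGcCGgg
Rasgrf2: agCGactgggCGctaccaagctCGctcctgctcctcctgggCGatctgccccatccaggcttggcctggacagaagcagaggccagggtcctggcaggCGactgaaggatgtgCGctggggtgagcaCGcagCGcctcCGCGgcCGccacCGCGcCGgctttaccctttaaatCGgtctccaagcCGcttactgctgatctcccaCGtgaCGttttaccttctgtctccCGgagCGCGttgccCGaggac
Etv1: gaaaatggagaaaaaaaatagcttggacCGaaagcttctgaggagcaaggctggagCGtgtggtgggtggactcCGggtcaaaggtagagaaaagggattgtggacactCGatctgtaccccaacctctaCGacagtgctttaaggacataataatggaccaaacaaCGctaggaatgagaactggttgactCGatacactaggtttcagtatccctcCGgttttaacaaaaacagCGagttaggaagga

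The Rspo1 window (chr4:124986180-124986429, plus strand) and the Rasgrf2 window (chr13:92131829-92132078, minus strand) lay just upstream of the annotated gene and held 22 CG dinucleotides each, against a median of 6 over the 32851 windows of the same length. The Etv1 window (chr12:38779832-38780081, plus strand) lay inside the annotated span of the gene, in an intron of longer transcripts, and held 9. The T-box core AGGTGT, searched on both strands, was in none of the 11 windows of the 8 members (0 of 11) and in 11.8% of all windows.

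The values were FPKM (fragments scaled by transcript length and library size), so that levels of different genes are given per length, and the libraries summed to between 359773 and 393447 FPKM. A gene was tested where it reached 0.5 FPKM in at least 3 of the libraries fitted. Fold changes are differences of log2(FPKM + 1) from limma, which understates the change of low genes, and a difference was called at an adjusted p under 0.05 (Benjamini-Hochberg over all genes tested). Nothing in the labels says that the 3 libraries of a group came from separate animals, so the p-values measure the spread between these libraries. The names of the cortex and the hippocampus libraries end in different codes, and the labels do not say what these stand for. Whether the tissues were processed apart is unknown, and such a difference could not be told apart from tissue. The tissue labels were checked against 10 hippocampal field markers, whose summed FPKM was 281 to 326 in the 6 hippocampus libraries and 133 to 158 in the 6 cortex libraries. By gene in Con, 8 of the 10 were called higher in hippocampus and 1 lower (6 and 1 of 8 without Dsp and Iyd, which passed the filter only through hippocampus). Mpped1 went the other way, at 76.5, 82.8 and 79.2 FPKM in cortex Con and 57.3, 51.9 and 63.1 FPKM in hippocampus Con. Summed FPKM of 8 choroid plexus and meninges markers was 468 in cortex IR 2, 1089.8 in hippocampus Con 2 and 1691 in hippocampus IR 1, against 27.9 to 105 in the other 9 libraries, and the counts of markers called are also given without these libraries.

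In cortex Con, Lamp5 stood highest at 104 ± 21.7 FPKM (SD, n = 3) and above the 96th percentile of expressed genes, while Foxp2 stood lowest at 2.14 ± 0.166 FPKM. Between them came Tbr1 (42.6 ± 2.92 FPKM), Rasgrf2 (34.7 ± 5.19 FPKM) and Cux2 (30.1 ± 3.80 FPKM), each overlapping with the next. Etv1 (20.1 ± 2.23 FPKM) and Fezf2 (17.9 ± 3.12 FPKM) followed with overlapping ranges, and then Rspo1 (10.1 ± 3.74 FPKM) and Bcl11b (9.82 ± 1.82 FPKM), which also overlapped. The hippocampus Con order was another one. There Bcl11b led with 37.6 ± 1.98 FPKM, apart from a group of 5 markers with overlapping neighbours between 12.3 FPKM (Tbr1) and 23.1 FPKM (Etv1), and Cux2 (4.72 ± 0.424 FPKM), Rspo1 (0.851 ± 0.380 FPKM) and Foxp2 (0.170 ± 0.0897 FPKM) came last.

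**Figure D1:**
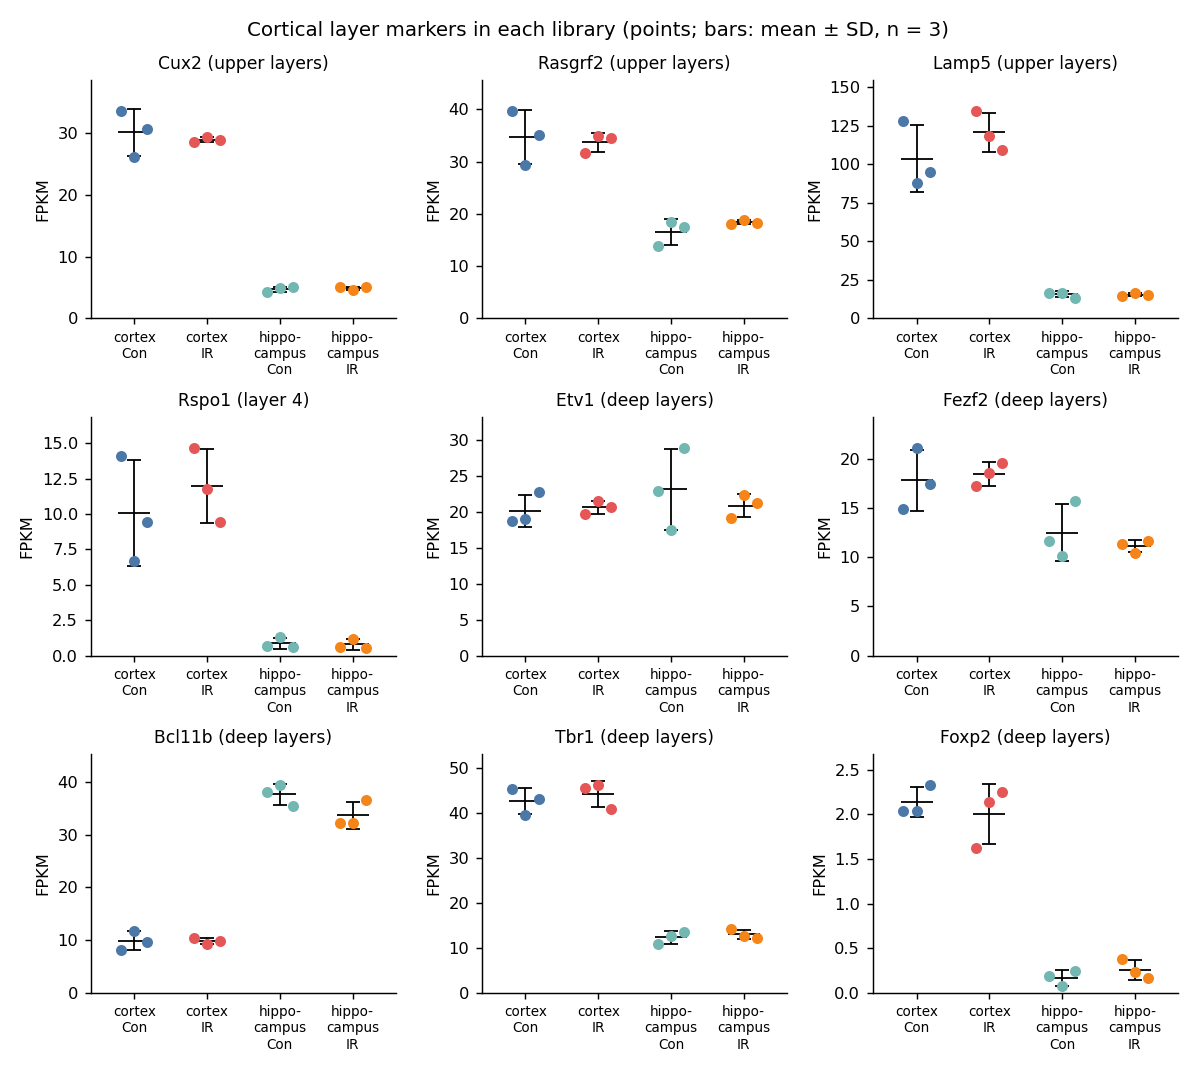
FPKM of each of the 9 markers (vertical axis, linear from 0) in the 12 libraries, by group (points are libraries, bars the mean ± SD, n = 3). Cux2, Lamp5, Rspo1, Tbr1 and Foxp2 are low in hippocampus, Bcl11b is high there, and within each tissue the Con and IR points overlap for all 9 genes.

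Between the tissues in Con, 8 of the 9 markers differed, 7 lower and 1 higher in hippocampus than in cortex. Over all 14169 genes tested, 36.3% differed, 17.3% lower and 19% higher in hippocampus. The Con libraries of the tissues did not overlap for 7 of the 9, against 49.8% of all genes. All 3 upper layer markers and Rspo1 were lower in hippocampus, whereas of the 5 deep layer markers 3 were lower, 1 was higher and 1 was not called. Foxp2 passed the filter only through its cortex libraries, so that a difference between the tissues was built into its test, here and in the IR libraries. Without Foxp2, 7 of 8 markers differed in Con, and the libraries did not overlap for 6 of 8.

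Cux2, a homeodomain transcription factor of upper layer neurons, was at 33.6, 26.05 and 30.6 FPKM in cortex Con and at 4.24, 4.89 and 5.04 FPKM in hippocampus Con. The lowest cortex library was far above the highest hippocampus library. The difference was -2.44 on the log2 scale (SE 0.104, adjusted p = 3.83e-07, limma).

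Lamp5, a lysosome-associated membrane protein that marks upper layer neurons and also a class of inhibitory neurons, was at 128, 87.6 and 94.7 FPKM in cortex Con. In hippocampus Con it was at 16.7, 16.8 and 13.4 FPKM, again without overlap. Its difference of -2.64 (SE 0.145, adjusted p = 2.25e-06, limma) was the largest of the 9 with a pseudocount of 1. With a pseudocount of 0.1 it was -2.71, smaller than those of Rspo1 (-3.42) and Foxp2 (-3.11). Rasgrf2, an exchange factor that activates Ras and Rac proteins, went from 39.7, 29.4 and 35.2 FPKM in cortex Con to 13.8, 18.4 and 17.5 FPKM in hippocampus Con. The groups did not overlap, yet its difference of -1.03 (SE 0.130, adjusted p = 0.000287, limma) was the smallest of the 3 upper layer markers.

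Rspo1, a secreted R-spondin that strengthens Wnt signalling, was at 14.1, 6.69 and 9.44 FPKM in cortex Con and at 0.675, 1.29 and 0.590 FPKM in hippocampus Con. Its libraries spread widely within each tissue but did not meet, with a difference of -2.54 (SE 0.242, adjusted p = 0.000106, limma).

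Of the deep layer markers, Tbr1, a T-box factor of layer 6 neurons that project to the thalamus, was at 45.3, 39.5 and 43.0 FPKM in cortex Con and at 10.7, 12.6 and 13.5 FPKM in hippocampus Con. The difference was -1.72 (SE 0.0953, adjusted p = 1.69e-06, limma), with no overlap. Foxp2, a forkhead factor of layer 6, had 2.04, 2.04 and 2.33 FPKM in cortex Con against 0.189, 0.0718 and 0.248 FPKM in hippocampus Con. It differed by -1.43 (SE 0.107, adjusted p = 9.05e-06, limma) on the log2(FPKM + 1) scale.

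Fezf2, a zinc finger factor that specifies layer 5 neurons projecting below the cortex, had 15.0, 21.2 and 17.5 FPKM in cortex Con and 11.7, 10.1 and 15.7 FPKM in hippocampus Con. Its ranges overlapped, since hippocampus Con 3 lay above cortex Con 1. The difference of -0.49 (SE 0.164, adjusted p = 0.046, limma) passed narrowly, and the adjusted p was 0.0508 with library number as a replicate block. The call also ended without cortex Con 2 (adjusted p = 0.148), cortex Con 3 (0.102), hippocampus Con 1 (0.124) or hippocampus Con 2 (0.137), and the lowest adjusted p with 1 library left out was 0.00518.

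Bcl11b, a zinc finger factor required by corticospinal neurons, ran the other way. It had 8.14, 11.8 and 9.57 FPKM in cortex Con and 38.0, 39.4 and 35.5 FPKM in hippocampus Con. Every hippocampus library was above every cortex library, by 1.85 on the log2 scale (SE 0.115, adjusted p = 3.25e-06, limma). The mean was 3.83 times higher in hippocampus.

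Etv1, an ETS family factor of layer 5 neurons, was the marker with no call. It had 18.6, 19.0 and 22.7 FPKM in cortex Con and 22.9, 17.5 and 28.8 FPKM in hippocampus Con, with overlapping groups. The difference was 0.17 (95% interval -0.20 to 0.53, adjusted p = 0.454, limma), so that at most a 1.45-fold higher level in hippocampus lay within the interval.

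In the IR libraries, which the Con fit did not use, 8 of the 9 markers again differed between the tissues, 7 lower and 1 higher in hippocampus (46.7% of all genes tested, 23% lower and 23.7% higher), and the groups did not overlap for 8 of the 9 (57.3% of all genes). Both counts include Foxp2, and without it each was 7 of 8. The differences in IR were -2.35 for Cux2, -0.84 for Rasgrf2, -2.89 for Lamp5 and -2.86 for Rspo1. Deep layer markers had -1.69 (Tbr1), -1.26 (Foxp2), -0.68 (Fezf2) and 1.67 (Bcl11b), and Etv1 had 0.01 (95% interval -0.13 to 0.16). Fezf2 in IR had 17.2, 18.6 and 19.6 FPKM in cortex against 11.3, 10.4 and 11.7 FPKM in hippocampus. Those groups did not overlap, and the adjusted p was 3.01e-05 (limma). Without the libraries rich in choroid plexus markers, the same comparison called 7 of 9 in Con (without hippocampus Con 2), 7 of 8 tested in IR without cortex IR 2, and 8 of 9 in IR without hippocampus IR 1. Over all genes, these fits called 3710 of 13971, 5507 of 13941 and 6282 of 13935, in the same order. Both counts out of 9 include Foxp2, which was not tested without cortex IR 2. Markers of other cell types were measured beside them: in Con, summed FPKM of 5 astrocyte markers was 239 to 304 in cortex and 391 to 483 in hippocampus, and of 14 interneuron markers 1304 to 1433 and 878 to 1086. The summed FPKM of 9 glutamatergic markers overlapped, with 2802 to 3232 in cortex and 2905 to 3303 in hippocampus. By gene in Con, 5 of these 9 were called higher in hippocampus and 4 lower, so the overlap of the sums does not show equal levels. Of the astrocyte markers 4 were called higher and 1 lower. Of the interneuron markers 2 were called higher and 6 lower (limma, 19% and 17.3% of all genes). In the IR libraries, 5 of 6 oligodendrocyte markers were called lower in hippocampus, against 0 of 6 in Con. Of 8 immediate early genes, 8 were called lower there in IR (7 of 7 without Egr2, which passed the filter only through cortex) and 3 in Con. Over all genes, 23% were called lower in IR and 17.3% in Con (limma). What part these had in the marker differences was not tested.

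**Figure D2:**
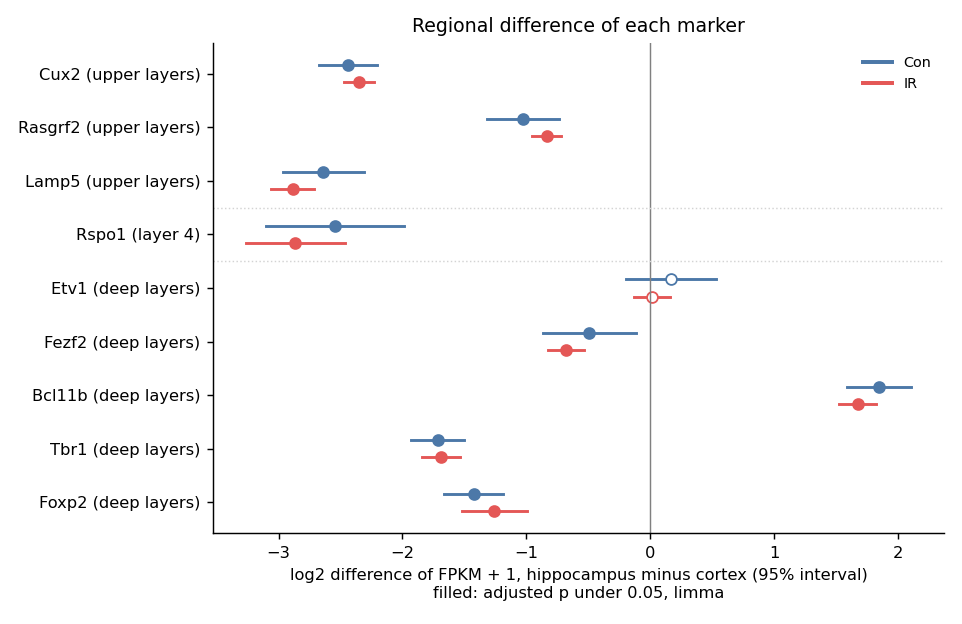
Difference of log2(FPKM + 1), hippocampus minus cortex (horizontal axis), of each marker in Con and in IR, with the 95% interval of limma (filled points, adjusted p under 0.05). The upper layer markers and Rspo1 lie between -2.89 and -0.84, Bcl11b lies at 1.85 and 1.67, and both Etv1 intervals cross 0.

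After IR, none of the 9 markers was called in cortex (0 of 9), and none had an unadjusted p under 0.05 either. Of the 14065 genes tested in cortex, 0.725% were called and 14.1% had an unadjusted p under 0.05 (8.16% higher and 5.94% lower in IR). With 1 library left out, the number called over all genes ran from 16 (without cortex IR 1) to 78 (without cortex Con 2), in place of 102. A fold of at least 1.5 with an unadjusted p under 0.05 was found for 0 of 9 markers and 0.483% of all genes. The 3 IR and 3 Con libraries overlapped for each of the 9 markers, while 20.3% of all genes had groups that did not overlap. The median difference was -0.04 over the 3 upper layer markers and 0.04 over the 5 deep layer markers, against 0.0016 over all genes tested.

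Cux2 had 28.6, 29.3 and 28.8 FPKM in cortex IR, inside the range of Con, with a difference of -0.05 (95% interval -0.23 to 0.14). That interval runs from 0.851-fold to 1.10-fold. Rasgrf2 had 31.6, 34.8 and 34.5 FPKM in cortex IR and differed by -0.04 (95% interval -0.25 to 0.18), also inside the Con range.

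Lamp5 and Rspo1 had the largest differences of the 9 and the widest intervals. Lamp5 was at 135, 118 and 109.5 FPKM in cortex IR, 2 of the 3 below the highest Con library. Its difference was 0.23 (95% interval -0.08 to 0.55, adjusted p = 0.495, limma). Rspo1 was at 14.7, 11.8 and 9.45 FPKM in cortex IR, with a difference of 0.26 (95% interval -0.40 to 0.93, adjusted p = 0.721, limma), so that up to a 1.90-fold higher level lay within the interval. Both values moved with the Con libraries in the fit. Without cortex Con 1 the difference was 0.40 for Lamp5 (adjusted p = 0.0964, limma) and 0.51 for Rspo1 (adjusted p = 0.302, limma), without cortex Con 2 it was 0.13 and 0.03, and over all libraries left out in turn the adjusted p ran up to 0.830 and 0.968.

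The deep layer markers lay closer to 0 than Lamp5 and Rspo1 did, as the upper layer markers Cux2 and Rasgrf2 also did. Tbr1 had 45.6, 46.2 and 40.9 FPKM in cortex IR, and its difference was 0.05 (95% interval -0.10 to 0.21). Etv1, at 19.7, 21.5 and 20.6 FPKM in IR, differed by 0.04 (95% interval -0.14 to 0.21). For both, IR and Con ranges overlapped. Fezf2 had a difference of 0.06 (95% interval -0.18 to 0.30), and Bcl11b, at 10.4, 9.27 and 9.89 FPKM in IR, had 0.02 (95% interval -0.23 to 0.26). Foxp2 was at 1.63, 2.13 and 2.26 FPKM in IR and differed by -0.07 (95% interval -0.30 to 0.17). Its lowest IR library was below all Con libraries and its other 2 were inside their range. Among the 5 deep layer markers, the intervals ran no lower than -0.30 and no higher than 0.30. Without cortex IR 2, the library with the most choroid plexus marker signal in cortex, again 0 of 9 were called and 0 had an unadjusted p under 0.05 (limma). With the other cortex libraries left out in turn 0 of 9 were called too, but 2 markers had an unadjusted p under 0.05 without cortex Con 1 (Lamp5 and Rspo1, both higher in IR) and 2 without cortex Con 2 (Cux2, lower, and Fezf2, higher). The sign of the difference turned without cortex Con 1 for Cux2, Rasgrf2, Etv1, Fezf2 and Bcl11b, and without cortex IR 1 for Rasgrf2, Bcl11b and Foxp2.

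In hippocampus, none of the 8 markers tested was called after IR (0 of 8), and none had an unadjusted p under 0.05. Of the 14043 genes tested there, 0.0285% were called, 13.9% had an unadjusted p under 0.05 (7.06% higher and 6.89% lower in IR), and 0.527% had that with a fold of at least 1.5 (0 of 8 markers). The groups overlapped for each of the 8, while 19.8% of all genes had groups that did not overlap. Foxp2 did not pass the filter, with 0.376, 0.231 and 0.159 FPKM in hippocampus IR. Bcl11b, the most abundant of the markers there, had 32.2, 32.2 and 36.6 FPKM in IR. Of the IR libraries, 2 were below all Con libraries and the other lay inside their range, with a difference of -0.16 (95% interval -0.33 to 0.01, adjusted p = 0.383, limma). Rasgrf2, at 18.1, 18.8 and 18.3 FPKM in hippocampus IR, differed by 0.15 (95% interval -0.08 to 0.39), and by 0.04 to 0.23 with 1 library left out. The remaining 6 markers had differences between -0.13 (Fezf2) and 0.08 (Tbr1). The sign of each of these 6 turned with 1 library left out: Cux2 and Tbr1 without hippocampus Con 1, Etv1 and Fezf2 without hippocampus Con 3, Lamp5 without Con 1, Con 2 or IR 1 and Rspo1 without Con 2, IR 1 or IR 3. Without hippocampus Con 2 or hippocampus IR 1, which were rich in choroid plexus markers, 0 of 8 were called, with 1 (Etv1, lower in IR) and 0 markers at an unadjusted p under 0.05 (limma). Bcl11b, lower in IR, had an unadjusted p under 0.05 without hippocampus Con 3 and without hippocampus IR 3. Without hippocampus Con 3, 880 genes were called in place of 4, none of them among the 8 markers. No difference between the IR effects of the tissues was detected for the 9 in the test of the interaction (0 of 9 called and 0 with an unadjusted p under 0.05, against 0.0823% and 10.3% of all genes). Over all genes the interaction called 12 of 14577, but 480 of 14528 without hippocampus Con 3 and 0 without hippocampus IR 1. With 1 library left out 0 of 9 were called, and an unadjusted p under 0.05 was found for Lamp5 without cortex Con 1, for Rasgrf2 and Bcl11b without cortex Con 2 and for Etv1 without hippocampus Con 2 (limma). The widest interaction interval was that of Rspo1, at -0.32 (95% interval -1.06 to 0.42), and the narrowest were those of Cux2, at 0.09 (-0.17 to 0.35), and Tbr1, at 0.02 (-0.24 to 0.29).

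**Figure D3:**
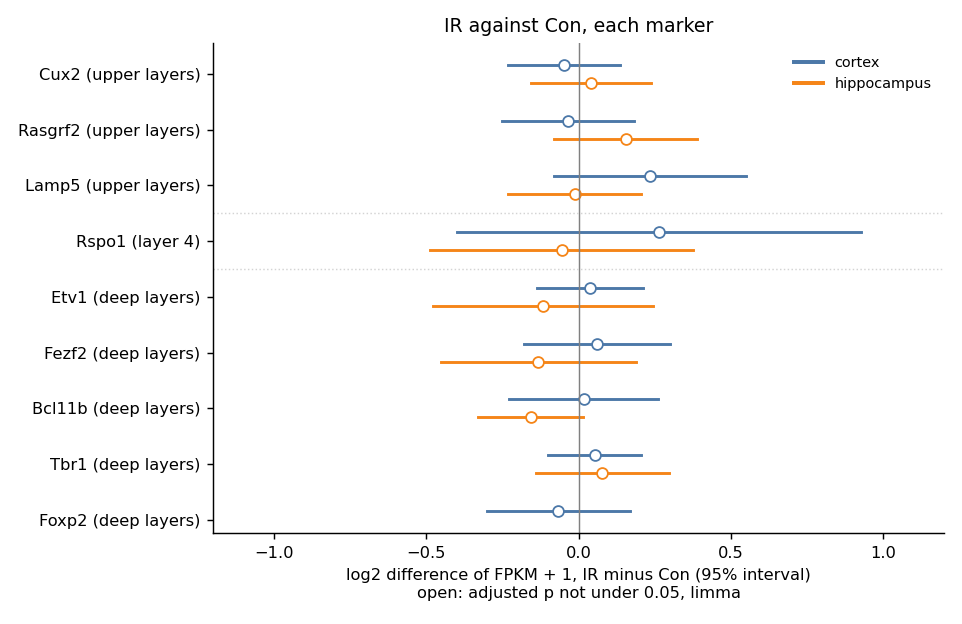
Difference of log2(FPKM + 1), IR minus Con (horizontal axis), of each marker in cortex and in hippocampus, with the 95% interval of limma. All points are open (no adjusted p under 0.05), every interval crosses 0, and Rspo1 has the widest in both tissues. Foxp2 was not tested in hippocampus.

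Upper against deep layers was described by the mean log2(FPKM + 1) of Cux2, Rasgrf2 and Lamp5 minus that of the 5 deep layer markers, without a test because the genes were chosen. The contrast was 2.10, 1.502 and 1.71 in the cortex Con libraries and 1.87, 1.79 and 1.75 in cortex IR. Means were 1.77 ± 0.305 in Con and 1.80 ± 0.0610 in IR (SD, n = 3), so that IR lay inside the Con range and the groups differed by 0.03. In hippocampus the contrast was 0.06 ± 0.206 in Con and 0.16 ± 0.0362 in IR, a difference of 0.11. Leaving out 1 library in turn moved the IR difference between -0.10 and 0.20 in cortex and between 0.02 and 0.22 in hippocampus. The contrast was at least 1.502 in every cortex library and at most 0.28 in every hippocampus library.

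The ends of the cortex Con range were libraries 1 and 2, which stood on opposite sides. Cortex Con 1 was 0.19, 0.22 and 0.21 above the mean of the 6 cortex libraries for Cux2, Rasgrf2 and Lamp5 on the log2 scale, and 0.26 and 0.24 below it for Fezf2 and Bcl11b. Cortex Con 2 was below the mean by -0.17, -0.21 and -0.34 for the same upper layer markers and above it by 0.22 and 0.24 for the same deep layer markers. Rspo1 went with the upper layer markers, at 0.37 in Con 1 and -0.60 in Con 2. Tbr1, a deep layer marker, also went with the upper layer markers, at 0.06 in Con 1 and -0.13 in Con 2, while Etv1 (-0.12 and -0.09) and Foxp2 (-0.01 in both) had the same sign in these 2 libraries. Over the 6 cortex libraries Bcl11b ran against Rasgrf2 (Pearson r = -0.98, exact permutation p = 0.00278, adjusted p = 0.05 over 36 pairs, Spearman rho = -0.94, exact p = 0.0167), and r was -0.87 without the 2 libraries farthest from the median of Rasgrf2. Lamp5 and Rspo1 ran together (r = 0.96, exact p = 0.00139, adjusted p = 0.05, rho = 1, exact p = 0.00278), and r was 0.98 without the 2 farthest libraries. None of the 36 pairs had an adjusted p under 0.05, 7 had an unadjusted exact p under it, and with 3 libraries a group no correlation within Con or IR was computed. In hippocampus 0 of 28 pairs had an adjusted p under 0.05 (exact permutation tests), with 2 unadjusted.

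Spread was larger in Con than in IR for 8 of the 9 markers in cortex and for 6 of 8 in hippocampus, given as the SD of log2(FPKM + 1). Over all genes tested the SD was larger in Con for 61.6% in cortex and 65.3% in hippocampus. The median SD of the 9 markers in cortex was 0.213 in Con and 0.0888 in IR, against 0.0952 and 0.0740 over all genes. Cux2 had a coefficient of variation of 12.6% in cortex Con and 1.31% in cortex IR, while Tbr1 had 6.85% and 6.55%. Beside the split of cortex Con 1 and Con 2, the summed FPKM of 11 striatal markers was 104 and 99.7, that of 6 oligodendrocyte markers 1213 and 1302, and that of 14 interneuron markers 1433 and 1396. For the further layer markers the sums were 406 and 412 (upper layers), 444 and 484 (layer 5) and 155 and 190 (layer 6). Single genes in these sums differed more and went both ways, such as Crym (26.1 and 58.0 FPKM) and Scn4b (28.8 and 15.0 FPKM), chosen after their values were seen. The summed FPKM of 8 immediate early genes was 138 in Con 1, the lowest of the 6 cortex libraries, and 297 in Con 2. The part of these markers in the split was not tested.

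**Figure D4:**
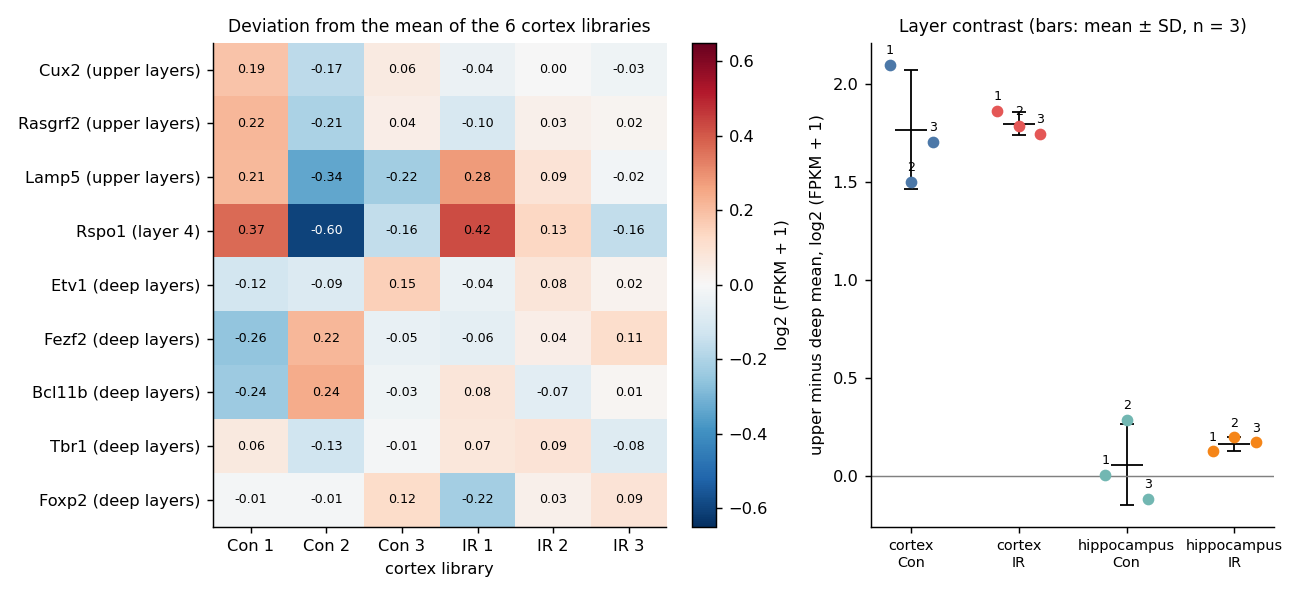
Left, deviation of each marker (rows) in each cortex library (columns) from its mean over the 6 cortex libraries, in log2(FPKM + 1) (color and printed values). Right, upper minus deep layer contrast in each library, numbered by replicate, with the mean ± SD per group (n = 3). Con 1 and Con 2 deviate in opposite directions for the upper layer markers, Rspo1, Fezf2 and Bcl11b, and the cortex IR contrast (1.75 to 1.87) lies inside the cortex Con range (1.502 to 2.10).

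Further layer markers gave a wider view of the same comparisons. In cortex after IR, none of 15 further upper layer markers, 15 of layer 5, 16 of layer 6 or 9 glutamatergic genes was called (0 in each list), with medians of -0.0039, 0.067, -0.060 and -0.016. At an unadjusted p under 0.05, 5 upper layer, 3 layer 5 and 5 layer 6 genes had differences, the layer 5 and upper layer genes all higher in IR and the layer 6 genes 2 higher and 3 lower (8.16% of all genes higher and 5.94% lower). The largest in layer 6 were Ntsr1, a neurotensin receptor of neurons projecting to the thalamus (3.88 ± 0.850 FPKM in Con and 2.36 ± 0.602 in IR, -0.54, adjusted p = 0.181, limma), and Car12, a carbonic anhydrase (0.956 ± 0.0612 and 1.77 ± 0.460 FPKM, 0.49, adjusted p = 0.119, limma). In the upper layer list the largest were Wfs1, a protein of the endoplasmic reticulum (-0.41, adjusted p = 0.624, limma), and Inhba, an activin subunit (0.35, adjusted p = 0.270, limma), and in the layer 5 list Crym (-0.28, adjusted p = 0.759, limma, but 0.02 without cortex Con 2) and the repressor Bcl6 (0.25, adjusted p = 0.119, limma). With 1 library left out, Wfs1 ran from -0.67 to -0.25 and Inhba from 0.22 to 0.46. Among the glutamatergic genes the largest were Emx1, a homeobox factor of the dorsal forebrain (-0.31, adjusted p = 0.181), and Neurod6, a bHLH factor of pyramidal neurons (0.27, adjusted p = 0.181, limma).

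Between the tissues in Con, the further layer markers went both ways, as did all genes tested (36.3% called, 19% higher and 17.3% lower in hippocampus). Of 15 upper layer markers, 3 were higher and 6 lower in hippocampus, led by Mdga1, an adhesion molecule (2.28), Plxnd1, a semaphorin receptor (-1.79), and the POU and homeodomain factors Pou3f2 (-1.48) and Cux1 (-1.46). Layer 5 markers split into 7 higher, such as the thyroid hormone binding protein Crym (2.17), and 7 lower, such as the zinc finger factor Tshz2 (-2.50), the sodium channel subunit Scn4b (-2.02) and the retinol carrier Rbp4 (-1.64). For layer 6, 3 of 16 were higher, led by Car12 (2.75), and 9 lower, among them Ctgf (-2.45), Cplx3 (-2.11) and Col5a1 (-1.81). As with Foxp2, 1 lower gene in each of the layer 5 and layer 6 lists (Qrfpr and Nxph4) passed the filter only through cortex, and without them 6 of 14 layer 5 and 8 of 15 layer 6 genes were lower. The medians of the upper layer, layer 5 and layer 6 lists were 0.01, -0.07 and -0.54 (0.11 for layer 5 without Qrfpr and -0.47 for layer 6 without Nxph4), beside 0.02 over all genes tested, while the medians of the members were -2.44 for the upper and -0.49 for the deep layer group (-0.16 without Foxp2). Of 9 glutamatergic genes 5 were higher and 4 lower, with the vesicular transporter Slc17a6 at -2.00, Emx1 at -1.04 and Neurod6 at 1.74.

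**Figure D5:**
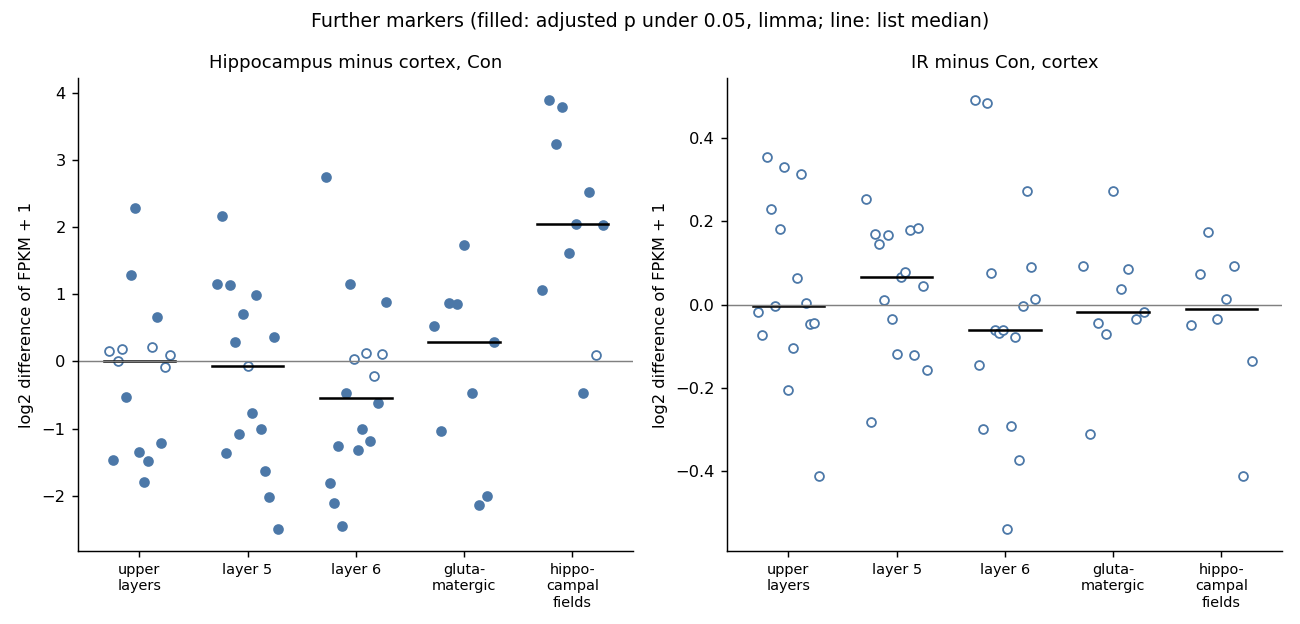
Differences of log2(FPKM + 1) of further markers (points are genes, filled where adjusted p is under 0.05, lines are list medians), hippocampus minus cortex in Con (left) and IR minus Con in cortex (right, on a finer axis). Layer markers lie on both sides of 0 between the tissues, hippocampal field markers have a median of 2.04 (1.82 without Dsp and Iyd, which passed the filter only through hippocampus), and no gene of the 5 lists is filled on the right.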

How the data were processed

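RNA of cortex and hippocampus was sequenced by the authors as paired-end libraries. The methods state a poly(A) selection, while the labels give total RNA and name no selection, and which RNA was sequenced is not settled here. Per the methods of the study, reads were trimmed with FASTX_Trimmer and BBMap and mapped with TopHat, and the deposited FPKM values were estimated with Cufflinks. The methods also state a geometric normalization in edgeR, and the submitters' processing notes name mm10. The labels name another RNA reagent than the methods do. The depth in reads is unknown, so that no interval for counting error is given. From the low values, the relative depth of a library was estimated at 1 to 1.12 times that of Con 1 of its tissue. The estimate is rough, and its top value, in hippocampus IR 1, rests on 17 of 227 genes. No pair of libraries was identical (0 pairs).

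The filter was 0.5 FPKM, reached by 3 or more of the libraries fitted. Tests were run on log2(FPKM + 1), a pseudocount of 1, in limma 3.58.1 under R 4.3.3, whose variance moderation used a trend on intensity and was made robust. The model was also run on simulated data, and the outcome is not reported here. Correlations used exact 2-sided permutation tests (scipy 1.17.1). Intervals are 95% intervals of limma. The members, further lists and alternatives were chosen with earlier results of these data known. All 9 members were named, and of each further list up to 4 called genes with the largest difference or, where none was called, the 2 largest, except for a gene that is not reported here. Groups came from the labels. Library numbers were not taken to pair samples, since the labels do not tie them to a mouse or batch. Correlations of deviations between same-numbered libraries are given below. They cannot settle the pairing, because deviations from means of 3 libraries constrain each other. Comparisons in the same tissue or treatment share libraries. Other pseudocounts, filters, priors and normalizations were tried, as was leaving out each library.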

Additional observations from a re-analysis of the deposited data

How the results depend on the processing

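The counts of markers called kept their side: 0 for IR against Con in both tissues and for the interaction under each alternative run, and 6 to 8 (Con) and 6 to 8 (IR) between the tissues. Between the tissues, Foxp2 is among the markers called in each run that tested all 9. The count of 6 arose with at least 1 FPKM in every library, where 7 members were tested, and without cortex Con 2 or 3, where 8 were tested. Over all genes, calls between the tissues ran from 3591 of 13939 (without cortex Con 1) to 6294 of 14169 (all 12 libraries in a single fit) in Con. In IR the number called ran from 5507 of 13941 (without cortex IR 2) to 6750 of 14173 (quantile normalization). With a replicate block, 0 members were called after IR in cortex, where Lamp5 had an unadjusted p of 0.0147, and 7 between the tissues in Con. The block moved the count over all genes from 102 to 71 in cortex and from 4 to 1 in hippocampus. The labels do not say whether same-numbered libraries share a mouse or a batch. Deviations of same-numbered IR and Con libraries correlated at 0.11, -0.11 and -0.04 in cortex and -0.39, -0.15 and -0.09 in hippocampus, and those of cortex and hippocampus libraries at 0.058, -0.044 and 0.199 in Con and -0.081, 0.0054 and 0.138 in IR. Without a filter, 24 genes were called in cortex, and without trend or robust prior 22. In hippocampus, the fit of all 12 libraries called 74 genes in place of 4.

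Fezf2 lost its call between the tissues in Con without a filter (adjusted p = 0.0754) and without trend or robust prior (adjusted p = 0.0524, limma), at the same difference. Etv1 between the tissues in IR was -0.0019 under quantile normalization. With 1 library left out, the signs of some differences turned, none of them called. In cortex after IR the lowest and highest were -0.145 and 0.032 for Cux2, -0.148 and 0.064 for Rasgrf2, -0.013 and 0.122 for Etv1, -0.055 and 0.182 for Fezf2, -0.099 and 0.142 for Bcl11b, -0.127 and 0.028 for Foxp2, and -0.539 and 0.022 for Crym. In hippocampus they were -0.022 and 0.081 for Cux2, -0.114 and 0.039 for Lamp5, -0.217 and 0.107 for Rspo1, -0.292 and 0.052 for Etv1, -0.264 and 0.032 for Fezf2, and -0.0092 and 0.144 for Tbr1. Etv1 between the tissues ran from -0.0011 to 0.343 in Con and from -0.032 to 0.074 in IR, and the interaction from -0.328 to 0.016 for Etv1 and from -0.062 to 0.091 for Tbr1. The causes were not tested.

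With 3 libraries a group and no read counts, differences inside the intervals given cannot be told from none, and levels near 0, such as those of Foxp2 and Rspo1 in hippocampus, carry no known counting error.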

Other observations

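The genes most like the upper layer markers over the 12 libraries, by Pearson r with the mean z score of Cux2, Rasgrf2 and Lamp5 among 14568 genes outside the 9, were Vwa5b2 (r = 0.996), Camk2n1, an inhibitor of the kinase CaMKII (r = 0.995), Trim66, BC030499 and Peg13 (r = 0.994 at the lowest). Camk2n1 had a mean of 655 FPKM in cortex Con, 712 in cortex IR, 188 in hippocampus Con and 196 in hippocampus IR. On the same measure Tbr1 followed the upper layer profile with r = 0.994 and Bcl11b ran against it with r = -0.995, while Etv1 had r = -0.29. For the deep layer profile the leading genes were Sst, the peptide somatostatin of a class of interneurons (r = 0.926), Kctd16, B230216N24Rik, 6430573F11Rik and Ldb2 (r = 0.891), and the deep layer members themselves ranged from r = -0.73 for Bcl11b to r = 0.94 for Fezf2. These values describe libraries of 2 tissues that differ widely, and the members enter their own profile.

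In hippocampus after IR, no further layer marker was called (0 of 15 upper, 0 of 15 layer 5 and 0 of 16 layer 6 genes, limma), with 3, 2 and 0 at an unadjusted p under 0.05 (13.9% of all genes). The POU factor Pou3f1 had 34.3 ± 1.64 FPKM in Con and 23.7 ± 5.60 FPKM in IR (-0.54, adjusted p = 0.255, limma), and Mdga1 had 14.7 ± 0.892 and 18.2 ± 1.02 FPKM (0.30, adjusted p = 0.241, limma). Wfs1 (-0.34, adjusted p = 0.423), Tshz2 (-0.44, adjusted p = 0.561), Rprm (-0.48, adjusted p = 0.404) and Car12 (0.44, adjusted p = 0.409, limma) were the other genes with the largest differences in their lists. With 1 library left out, the lowest and highest were -0.71 and -0.39 for Pou3f1, -0.56 and -0.21 for Wfs1, and -0.81 and -0.17 for Tshz2. They were -0.68 and -0.17 for Rprm and 0.29 and 0.70 for Car12. Of the other lists in cortex after IR, 1 of 8 immediate early genes was called, Fosb, with 3.28 ± 0.505 FPKM in Con and 6.31 ± 1.10 FPKM in IR (0.77, adjusted p = 0.0303, limma), against 0.725% of all genes. At an unadjusted p under 0.05, 5 of the 8 were higher in IR (8.16% of all genes), among them Egr2, which passed the filter only through IR. The Fosb call ended with any 1 of the 6 libraries left out (adjusted p from 0.0507 to 0.0891, limma), while the difference stayed between 0.65 and 0.84. Summed FPKM of the 8 immediate early genes was 138 to 313 in cortex Con and 499.8 to 612 in cortex IR. Of the cell type lists in cortex, 0 of 14 interneuron, 0 of 6 oligodendrocyte, 0 of 5 astrocyte and 0 of 5 microglia markers were called (limma), while at an unadjusted p under 0.05, 3 oligodendrocyte markers were higher and 3 microglia and 2 interneuron markers lower in IR (8.16% of all genes higher and 5.94% lower). In hippocampus the microglial receptor Csf1r was called, with 22.3 ± 1.83 FPKM in Con and 11.99 ± 0.266 FPKM in IR (-0.84, adjusted p = 0.0126, limma), and no other marker of the 4 cell type lists was. At an unadjusted p under 0.05, 5 of 5 microglia, 3 of 5 astrocyte, 2 of 6 oligodendrocyte and 2 of 14 interneuron markers were lower and 1 interneuron marker was higher in IR (6.89% of all genes lower and 7.06% higher). The Csf1r difference stayed between -0.90 and -0.79 with 1 library left out. Its call held in 2 of 6 such fits, without hippocampus Con 2 and without Con 3. It ended without Con 1 (adjusted p = 0.0571) and without IR 1 (0.186), IR 2 (0.230) or IR 3 (0.193), and in the last 3 fits 0 genes were called. What part these lists had in the values of the layer markers was not tested.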
